A study of Mus musculus with 8 samples.

Results

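The 9 genes described here encode the building blocks of microtubules and a protein that binds them: 4 alpha tubulins (Tuba1a, Tuba1b, Tuba1c and Tuba4a), 4 beta tubulins (Tubb2a, Tubb2b, Tubb5 and Tubb6) and stathmin (Stmn1). They were taken by gene symbol from the 37982 genes of the authors' deposited table, and each symbol matched 1 row per comparison. The genes were picked with the group values of all 3 comparisons known, so their levels, fold changes and q-values below are a description and no test of the group of genes.

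RNA came from C57BL/6 mouse pups on postnatal day 7, from hearts whose atria had been removed, so that ventricular tissue remained. There were 3 samples of the triple mutant, in which Nkx2-5, Mkl2 and Myh7 are altered, 3 of the double mutant, in which Mkl2 and Myh7 are altered, and 2 of wild type (the altered genes of the double mutant are as known from the study). Mkl2 encodes a coactivator of serum response factor, Myh7 a cardiac myosin heavy chain and Nkx2-5 a homeodomain factor of heart muscle. The labels give neither the alleles and their zygosity nor the sex of the pups, and they do not say which libraries entered the authors' test. The design sets the triple mutant against wild type for the diseased state, and against the double mutant for the effect of the Nkx2-5 modifier. The deposited table also sets the double mutant against wild type.

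The authors' deposited table holds 1 FPKM (fragments scaled to transcript length and library size) per gene and group. No value per sample was analysed here, so no spread between replicates is given, the depth of each library is unknown, and overlap between samples of different groups cannot be described. The error beside a fold change is the standard error implied by the authors' statistic, that is, the log2 fold change divided by the statistic. A gene was called where the deposited q-value was under 0.05. All 3 comparisons share groups, so they are not independent of each other. Of the 12 cardiomyocyte markers listed, 9 (among them Tnnt2, Myh6 and Ttn) are listed at 0 under a status that marks a failed estimate, and the tissue was checked on the other 3. In the authors' deposited table Ckm, the muscle creatine kinase, stood at 388 FPKM in the triple mutant, 418 in the double mutant and 305 in wild type. Cox6a2, a muscle subunit of cytochrome c oxidase, stood at 137, 154 and 118 FPKM in that order of groups. The last of the 3 markers is Nkx2-5, itself altered in the triple mutant, at 55.2 FPKM in the triple mutant, 53.1 in the double mutant and 43.6 in wild type. The Y-linked gene Eif2s3y stood at 31.1, 41.1 and 10.2 FPKM in that order of groups, so the sex of the pups and the genotype cannot be told apart.

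Microtubules are hollow polymers of dimers of alpha and beta tubulin. They form the mitotic spindle of dividing cells, and in heart muscle cells a dense network around the nucleus and between the myofibrils that carries cargo and adds stiffness. The tubulin isotypes share a conserved body and differ mainly in the acidic tail at the carboxy terminus, where enzymes add or remove residues: most alpha tubulins end in a tyrosine that can be cut off and put back. Tubulin transcripts are also subject to autoregulation, in which a surplus of free dimers leads to decay of tubulin mRNAs as they are translated. Stathmin holds free dimers and promotes the disassembly of microtubules, and phosphorylation in mitosis turns it off.

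The end of the coding sequence encodes the acidic tail and, where present, the terminal tyrosine, so it is shown for 5 of the tubulins. Each line gives the last 48 bases of the coding sequence, 5′ to 3′ on the coding strand, from GENCODE M21 transcripts on GRCm38, with the last codon before the stop in capitals.
Tuba1c: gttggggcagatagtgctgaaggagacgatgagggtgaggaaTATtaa
Tuba4a: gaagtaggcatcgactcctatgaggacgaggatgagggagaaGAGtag
Tubb2a: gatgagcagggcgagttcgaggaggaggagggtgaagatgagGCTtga
Tubb2b: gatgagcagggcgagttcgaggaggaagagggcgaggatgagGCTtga
Tubb5: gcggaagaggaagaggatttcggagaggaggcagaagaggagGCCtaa
Tuba1c ends in a tyrosine codon (TAT), whereas Tuba4a ends in a glutamate codon (GAG) and the beta tubulins shown in an alanine codon (GCT or GCC). The ends of Tubb2a and Tubb2b differ only in synonymous codons, so these stretches encode the same residues. In GRCm38 these stretches lie at chr15:99037962-99038009 (plus strand, Tuba1c), chr1:75215622-75215669 (minus, Tuba4a), chr13:34074468-34074515 (minus, Tubb2a), chr13:34127471-34127518 (minus, Tubb2b) and chr17:35834982-35835029 (minus, Tubb5).

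The genes themselves are placed by the deposited table on the mm9 build. The Tuba1 genes neighbour each other on chromosome 15, with Tuba1b (ENSMUSG00000023004) at 98761856 to 98764996, Tuba1a (ENSMUSG00000072235) at 98780272 to 98783982 and Tuba1c (ENSMUSG00000043091) at 98860322 to 98868536. Tubb2a (ENSMUSG00000058672) at 34166170 to 34169877 and Tubb2b (ENSMUSG00000045136) at 34218877 to 34222223 are neighbours on chromosome 13. Tubb5 (ENSMUSG00000001525) lies on chromosome 17 at 35970871 to 35975251, and Tubb6 (ENSMUSG00000001473) on chromosome 18 at 67550371 to 67562402. Tuba4a (ENSMUSG00000026202), on chromosome 1 at 75207413 to 75215828, shares its locus in the table with Stk16. Stmn1 (ENSMUSG00000028832), on chromosome 4 at 134024235 to 134029758, shares its locus with AL669982.1. Reads of a shared locus could have been split or joined between its genes.

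Several of these genes are near-identical copies, and the sources used here do not say how reads that match more than 1 gene were counted. The coding sequences of Tuba1a and Tuba1b were identical at 98.3% of aligned positions, those of Tuba1b and Tuba1c at 97.9%, and those of Tubb2a and Tubb2b at 96.5%. Tuba4a matched the Tuba1 genes at 84.7% to 85.3%. Of all 50-base windows of the transcript, 73.8% in Tuba1b, 72.9% in Tuba1a and 61.0% in Tuba1c also occurred in a transcript of another gene. That share was 49.6% in Tubb2a, 39.3% in Tubb2b and 36.5% in Stmn1, whose matches lay mostly in the pseudogene Gm11223. It was 1.11% in Tuba4a, 0.115% in Tubb5 and 0 in Tubb6. The levels of the single Tuba1 genes, of Tubb2a and Tubb2b and, in part, of Stmn1 are therefore uncertain, while Tubb5 and Tubb6 shared few or no exact windows. Shorter or inexact matches were not searched, and the read length is not known from the sources used here.

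**Figure D1:**
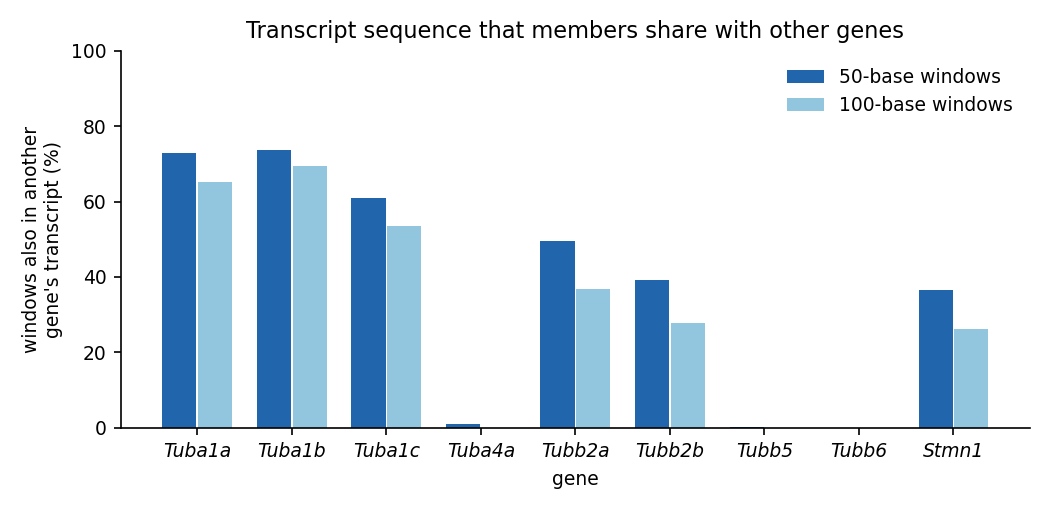
Share of 50-base and 100-base windows of each gene's transcript (y axis, percent) that also occur in a transcript of another gene, by gene (x axis), in GENCODE M21. The Tuba1 genes lie highest, with 61.0% to 73.8% of 50-base windows shared, and Tubb6 has none.

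Among the alpha tubulins, Tuba1b rose in the triple mutant against both other groups, and no other alpha tubulin was called in any comparison. Tuba1b, a widely expressed isotype, stood at 204 FPKM in the triple mutant, 132 in the double mutant and 136 in wild type in the authors' deposited table. The triple mutant was therefore the high group, and the double mutant and wild type lay close together. The deposited fold change was 1.50-fold against wild type (log2 0.58 ± 0.24, standard error implied by the statistic) and 1.55-fold against the double mutant (log2 0.63 ± 0.23), each at a q-value of 0.0066. Between double mutant and wild type the log2 difference of Tuba1b was -0.04, with a q-value of 0.964. As these are bulk samples, a change in the number of cells of a type and a change in RNA per cell cannot be told apart, here and in the results that follow.

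Tuba1a, the isotype best known from developing neurons and also present in heart, had 185 FPKM in the triple mutant, 163 in the double mutant and 149 in wild type in the authors' deposited table. Its order was the same as that of Tuba4a, the isotype encoded without a terminal tyrosine, which had 145, 136 and 124 FPKM in those groups. Neither gene was called. The deposited log2 fold changes of Tuba1a were 0.31 in the triple mutant against wild type (q-value 0.361), 0.19 in the triple against the double mutant (0.708) and 0.13 in the double mutant against wild type (0.865). Those of Tuba4a were 0.22 (q-value 0.577), 0.09 (0.908) and 0.13 (0.844) in the same order of comparisons. Tuba1c was the scarcest alpha member, at 12.04 FPKM in the triple mutant, 9.35 in the double mutant and 10.96 in wild type in the authors' deposited table, and its q-values lay between 0.388 and 0.879.

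Each of the 4 beta tubulins among the 9 genes was lowest in the double mutant and highest in the triple mutant, with wild type between. Tuba1b and Tuba1c had this order too, whereas Tuba1a and Tuba4a were lowest in wild type. Tubb4a, a beta tubulin outside the 9 genes, had 17.0 FPKM in the triple mutant, 18.5 in the double mutant and 17.0 in wild type. Tubb2b, an isotype of developing and neural tissue, stood at 90.3 FPKM in the triple mutant, 50.6 in the double mutant and 67.9 in wild type in the authors' deposited table. Against the double mutant it was 1.78-fold higher (log2 0.83 ± 0.23, q-value 0.0066), the largest fold change of any of the 9 genes. Its near copy Tubb2a had 129 FPKM in the triple mutant, 87.3 in the double mutant and 124 in wild type. Tubb2a rose 1.48-fold in the triple against the double mutant (log2 0.56 ± 0.23, q-value 0.0066) and fell 1.42-fold in the double mutant against wild type (log2 -0.50 ± 0.24, q-value 0.0150), both in the authors' deposited table. It was the only one of the 9 genes called in that last comparison.

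Tubb6, an isotype raised in regenerating and dystrophic muscle in mice, had 122 FPKM in the triple mutant, 82.6 in the double mutant and 111 in wild type in the authors' deposited table. It rose 1.47-fold in the triple against the double mutant (log2 0.56 ± 0.23, q-value 0.0066). In the double mutant against wild type its deposited log2 fold change was -0.42 (q-value 0.0652), and that of Tubb2b was -0.42 as well (q-value 0.0868). Tubb6 shared no window with another gene, so its values rest on its own sequence.

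Tubb5, the main beta tubulin of most dividing cells, was the most abundant of the 9 genes, with 392 FPKM in the triple mutant, 284 in the double mutant and 359 in wild type in the authors' deposited table. No comparison of Tubb5 was called. Its deposited log2 fold changes were 0.47 in the triple against the double mutant (q-value 0.101), 0.13 in the triple mutant against wild type (0.880) and -0.34 in the double mutant against wild type (0.361). Against wild type, the triple mutant differed by a log2 fold change of 0.06 in Tubb2a (q-value 0.949), 0.14 in Tubb6 (0.805) and 0.41 in Tubb2b (0.102), and no beta tubulin of the 9 genes was called there.

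**Figure D2:**
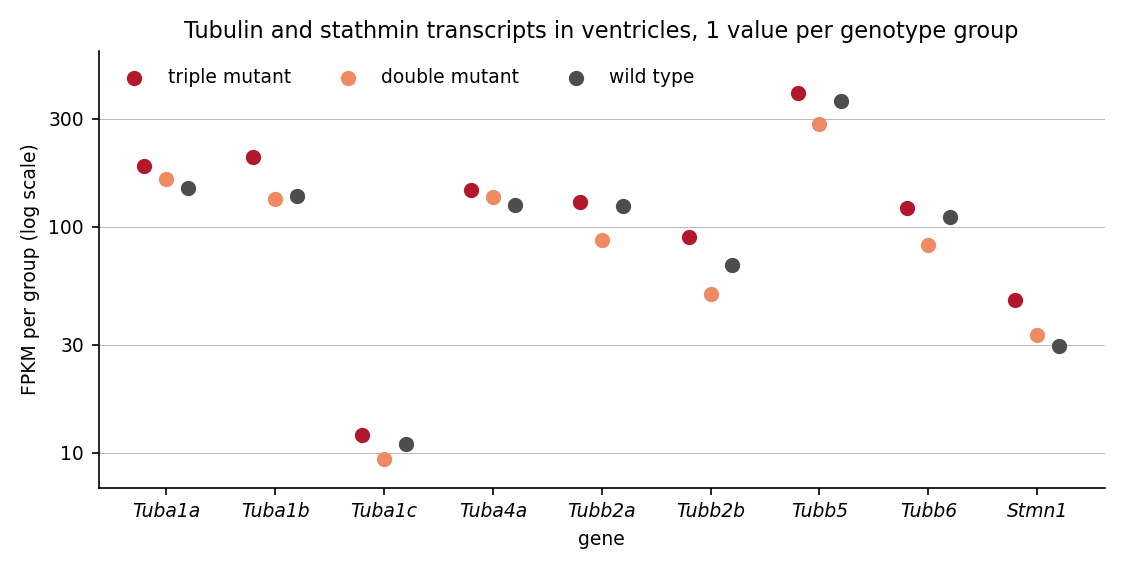
FPKM of each of the 9 genes (y axis, log scale) in the triple mutant, the double mutant and wild type (1 deposited value per group, no error bars). The beta tubulins, Tuba1b and Tuba1c are lowest in the double mutant. Tuba1b stands out in the triple mutant at 204, and Stmn1 has 47.2 in the triple mutant, 33.2 in the double mutant and 29.6 in wild type.

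Stmn1 rose in the triple mutant against both other groups, as Tuba1b did. It stood at 47.2 FPKM in the triple mutant, 33.2 in the double mutant and 29.6 in wild type in the authors' deposited table. The deposited fold change was 1.59-fold against wild type (log2 0.67 ± 0.27, q-value 0.0066) and 1.42-fold against the double mutant (log2 0.51 ± 0.27, q-value 0.0418). The second of these calls lay nearest to the threshold from inside, and was lost, with a q-value of 0.0622, when p-values were adjusted within that comparison alone. Between double mutant and wild type the log2 difference of Stmn1 was 0.16, with a q-value of 0.794. The pseudogene Gm11223, which shares sequence with Stmn1, stood at 0.471, 0.459 and 1.14 FPKM in the triple mutant, the double mutant and wild type. The other stathmins, Stmn2, Stmn3 and Stmn4, known mainly from neurons, were not tested by the authors, and the highest value among them was 1.44 FPKM, in the double mutant.

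Counted together, 5 of the 9 genes (Tuba1b, Tubb2a, Tubb2b, Tubb6 and Stmn1) were called in the triple against the double mutant, each of them higher, where 1.25% of the 12786 genes tested were called in either direction and 0.704% as higher. In the triple mutant against wild type, 2 of the 9 (Tuba1b and Stmn1) were called, both higher, beside 1.52% of 12986 genes tested in either direction and 1.16% as higher. In the double mutant against wild type 1 of the 9 (Tubb2a) was called, lower, beside 2.65% of 13034 in either direction and 0.767% as lower. The genes were chosen on these same comparisons, so nothing is read from the difference between their shares and the background. All 9 had a positive log2 fold change in both comparisons of the triple mutant, and 3 of 9 (Tuba1a, Tuba4a and Stmn1) in the double mutant against wild type. The median log2 fold change over the 9 genes was 0.51 in the triple against the double mutant, 0.22 in the triple mutant against wild type and -0.23 in the double mutant against wild type. Over all genes tested the medians were -0.0011, -0.0033 and -0.0040.

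All of these calls rest on the authors' p-values. In the authors' deposited table the normal deviate that matches a p-value was a median of 1.76 times the statistic in the same row. When the statistic itself was read as a normal deviate and adjusted by Benjamini-Hochberg, none of the 9 genes was called in any comparison. On that reading 4 genes of the whole table (0.0313%) were called in the triple against the double mutant, 5 (0.0387%) in the triple mutant against wild type and 9 (0.0694%) in the double mutant against wild type. Without adjustment, p-values from the statistic under 0.05 took in 4 of the 9 genes (1.14% of all tested) in the triple against the double mutant, 2 (1.4%) in the triple mutant against wild type and 1 (2.57%) in the double mutant against wild type. Deposited p-values under 0.05 took in 7 of the 9 (8.45% of all tested), 4 (12.1%) and 4 (16.3%) in the same order of comparisons. With a deposited q-value under 0.1, 5 (1.98% of all tested), 2 (2.75%) and 3 (4.41%) of the 9 genes passed. With q-values adjusted within each comparison, 4 (0.97%), 2 (1.36%) and 2 (3.42%) passed.

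**Figure D3:**
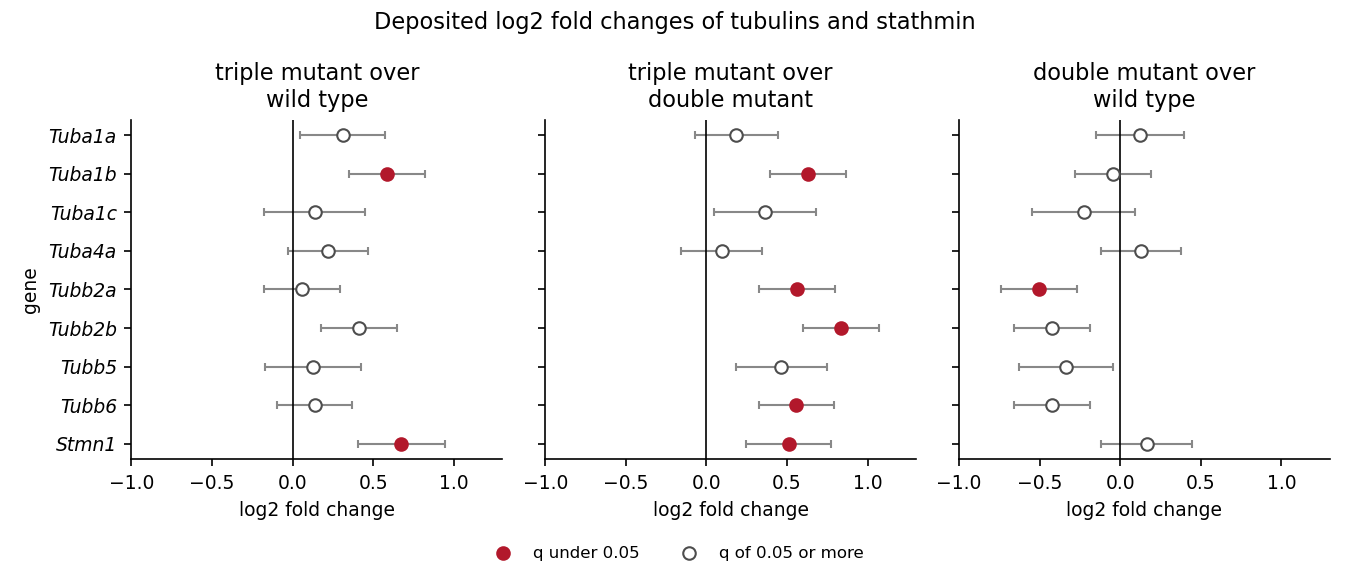
Deposited log2 fold change (x axis) of each of the 9 genes (y axis) in the triple mutant over wild type, the triple over the double mutant and the double mutant over wild type. Filled points have a deposited q-value under 0.05, open points do not, and bars show 1 standard error implied by the statistic to either side. All points of the first 2 panels lie right of 0, and Tubb2a lies left of 0 and is filled in the third.

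FPKM is per length, so levels can be added across isotypes. The summed FPKM of 6 beta tubulins, Tubb4a and Tubb4b beside the 4 described above, was 1153 in the triple mutant, 805.8 in the double mutant and 978.1 in wild type. The ratio of these sums was 1.43 for triple over double mutant, 1.18 for triple mutant over wild type and 0.824 for double mutant over wild type. The 5 alpha tubulins, with Tuba8 added, summed to 597.9 FPKM in the triple mutant, 496.4 in the double mutant and 463.0 in wild type. Their ratios were 1.20, 1.29 and 1.07 in the same order of comparisons, so the double mutant lay below wild type in the beta sum and above it in the alpha sum. The sums leave out Tubb1 (0.338 FPKM in the triple mutant, 0.298 in the double mutant and 0.607 in wild type) and Tuba3b (0.321, 0.169 and 0.170), which were under 1 FPKM in every group. The beta sum also leaves out Tubb3, a failed estimate whose level is unknown. Reads split among the Tuba1 genes, or between Tubb2a and Tubb2b, stay within these sums. Reads shared with genes outside the sums may not. Of its 50-base windows, Tuba1a shared 46.6% with Gm17383, Tuba1b 48.1% with Gm14150 and Tubb2a 18.8% with Tubb2a-ps2. Gm17383 stood at 0.846 FPKM in the triple mutant, 0.215 in the double mutant and 0.795 in wild type, and Gm14150 at 0.783, 0.215 and 0.572. The sums carry no error, since each group has 1 value. The summed tubulin FPKM was 37.1 times that of Stmn1 in the triple mutant, 39.2 times in the double mutant and 48.6 times in wild type.

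Within the alpha sum, the share of Tuba1b was 34.1% in the triple mutant, 26.6% in the double mutant and 29.4% in wild type, and Tuba1b was the leading alpha isotype only in the triple mutant. Tuba1a held 30.9% in the triple mutant and led in the other groups, with 32.8% in the double mutant and 32.2% in wild type. Of their 50-base windows, 72.9% in Tuba1a and 73.8% in Tuba1b also occur in another gene, so the order of these isotypes is uncertain. Tuba4a held 24.2%, 27.3% and 26.8% in the triple mutant, the double mutant and wild type. Within the beta sum, Tubb5 held 34.0%, 35.2% and 36.7% and Tubb4b 35.0%, 35.1% and 30.7% in that order of groups. Tubb4b thus held slightly more than Tubb5 in the triple mutant, about as much in the double mutant and less in wild type. Tubb2a, Tubb6 and Tubb2b each held between 6.28% and 12.7% in every group. No test applies to these shares, and reads that match both Tubb2a and Tubb2b could shift the shares of these genes as well.

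**Figure D4:**
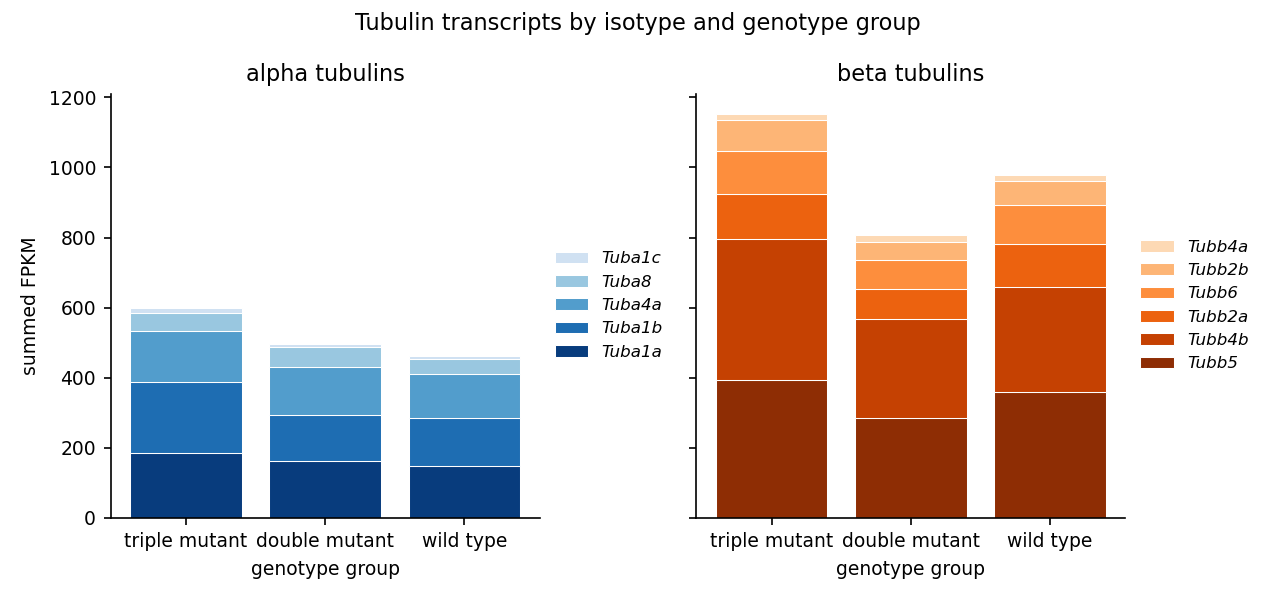
Summed FPKM (y axis) of the alpha tubulins and of the beta tubulins in the triple mutant, the double mutant and wild type, stacked by isotype. The beta sum is 1153, 805.8 and 978.1 in that order of groups, and the alpha sum 597.9, 496.4 and 463.0.

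Of the 12 other tubulin genes listed, 5 were tested, and 1 was called, in the triple against the double mutant, beside 1.25% of all genes tested there. Tubb4b, a broadly expressed beta tubulin in a shared locus, stood at 404 FPKM in the triple mutant, 283 in the double mutant and 300 in wild type in the authors' deposited table, and rose 1.43-fold in the triple against the double mutant (log2 0.51 ± 0.25, q-value 0.0214). Its log2 fold change was 0.43 against wild type (q-value 0.0934). Tuba8, an alpha tubulin of heart and skeletal muscle, had 52.2 FPKM in the triple mutant, 56.9 in the double mutant and 42.8 in wild type, with no call. Tubb3, the neuronal beta tubulin, is listed at 0 as a failed estimate, and Tuba3a and Tubal3 were at 0 in every group.

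The rest of the microtubule genes were examined as lists of folding cofactors, chaperonin and prefoldin subunits, modifying enzymes, autoregulation factors, microtubule-associated and plus-end proteins, severing enzymes, the gamma-tubulin ring complex and transport motors. With the other tubulins and stathmins these lists held 107 genes, of which 92 were tested in each comparison. Tubb4b was the only one of the 92 called in the triple against the double mutant, beside 1.25% of all genes tested. An unadjusted deposited p under 0.05 was found there in 3 of the 92, beside 8.45% of all. None was called in the triple mutant against wild type by the authors' Cuffdiff q-value, beside 1.52% of all genes tested. In that comparison 11 of the 92 had an unadjusted p under 0.05, beside 12.1% of all genes tested, and none was called on the normal reading of the statistic. The double mutant against wild type gave 1 call among the 92, beside 2.65% of all genes tested in either direction and 0.767% as lower. It was the microtubule-associated kinase Dclk1, which fell 1.49-fold with 3.67 FPKM in the double mutant against 5.47 in wild type in the authors' deposited table (log2 -0.58 ± 0.30, q-value 0.0398). An unadjusted deposited p under 0.05 was found in 19 of the 92 in that comparison, beside 16.3% of all genes tested. The median log2 fold change over the 92 genes was 0.03 in the triple against the double mutant, 0.07 in the triple mutant against wild type and 0.05 in the double mutant against wild type.

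The 13 chaperonin and prefoldin subunits, which fold newly made tubulin, showed a median difference (log2) of 0.01 in the triple against the double mutant. In the triple mutant against wild type it was 0.16, and neither comparison gave a call. The double mutant against wild type gave no call either, and 4 of the 13 had an unadjusted deposited p under 0.05, beside 16.3% of all genes tested. Log2 fold changes there ran from -0.55 to 1.19. The highest was that of Pfdn5, named after its values were seen and in a shared locus. Pfdn5 had 9.52 FPKM in the triple mutant, 15.5 in the double mutant and 6.78 in wild type. Cct5, a chaperonin subunit, had 133 FPKM in the triple mutant, 138 in the double mutant and 103 in wild type in the authors' deposited table, and Tcp1, another subunit of that complex, had 261, 222 and 244. The 7 folding cofactors, which assemble the dimer, had medians of 0.08 (triple mutant over wild type) and -0.03 (triple over double mutant), and Tbcc had 17.5 FPKM in the triple mutant, 18.6 in the double mutant and 14.7 in wild type. In the double mutant against wild type the cofactors had a median of 0.32, with 4 of 7 positive, no call and 3 of 7 at an unadjusted p under 0.05, beside 16.3% of all genes tested. The highest of them there was Tbca, named after its values were seen, with 5.00 FPKM in the triple mutant, 5.09 in the double mutant and 2.03 in wild type in the authors' deposited table (double mutant over wild type, log2 1.33 ± 0.77, q-value 0.140). None of the 15 modifying enzymes was called: Vash1, which cuts off the terminal tyrosine, had 45.5 FPKM in the triple mutant, 52.0 in the double mutant and 52.6 in wild type, and Atat1, the acetyltransferase of alpha tubulin, had 25.9, 24.6 and 20.9. The autoregulation factors were low, with Ttc5, which recognises nascent tubulin, at 4.35 FPKM in the triple mutant, 3.27 in the double mutant and 4.75 in wild type, and Scaper at 3.49, 3.82 and 3.69.

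Among the 22 associated and plus-end proteins tested, Mapre2, which tracks growing ends, had 134 FPKM in the triple mutant, 129 in the double mutant and 110 in wild type in the authors' deposited table. The lattice-binding protein Map4, listed as Mtap4, had 110 FPKM in the triple mutant, 111 in the double mutant and 122 in wild type. Another entry listed as Mtap4 (ENSMUSG00000047011) went the other way, with 8.09 FPKM in the triple mutant, 8.05 in the double mutant and 5.20 in wild type. Both entries lie in a shared locus. The 6 severing enzymes had medians of 0.12 (triple mutant over wild type) and 0.23 (triple over double mutant), and Fignl1 had 13.7, 11.6 and 13.3 FPKM in the 3 groups. The 8 genes of the gamma-tubulin ring complex, which nucleates microtubules, had medians of 0.05 and 0.04 in these comparisons, with Tubgcp3 at 27.2 FPKM in the triple mutant, 23.2 in the double mutant and 23.5 in wild type. The 14 motor subunits tested had medians of 0.19 and 0.03 there, with the dynein light chain Dynll2 at 181 FPKM in the triple mutant, 214 in the double mutant and 218 in wild type. In the double mutant over wild type the medians were 0.12 for chaperonin and prefoldin subunits, -0.12 for modifying enzymes, -0.02 for associated and plus-end proteins, -0.04 for severing enzymes, -0.04 for the ring complex and 0.09 for motors.

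**Figure D5:**
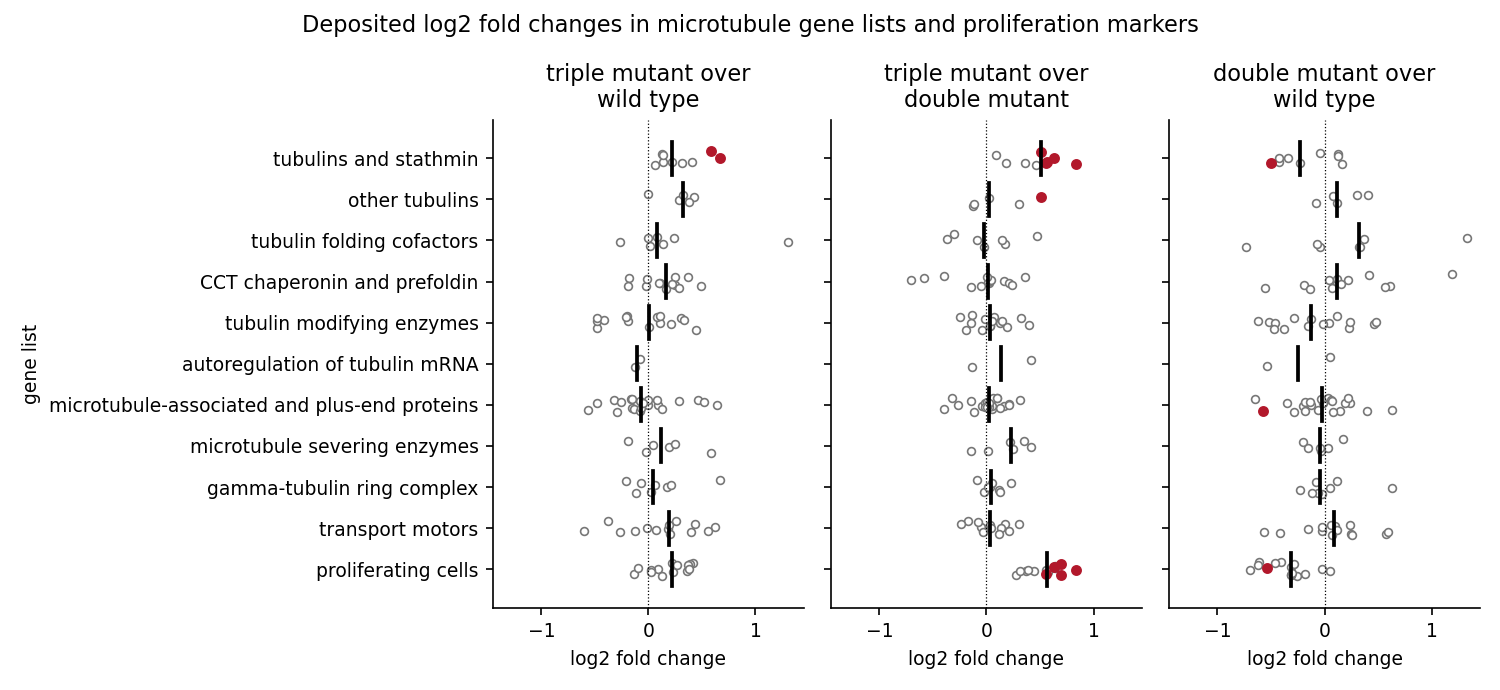
Deposited log2 fold change (x axis) of every tested gene in the 9 genes, the microtubule gene lists and the list of proliferation markers (y axis), in the triple mutant over wild type, the triple over the double mutant and the double mutant over wild type. Filled points have a deposited q-value under 0.05 and vertical marks are list medians. The microtubule lists have medians of -0.03 to 0.23 in the triple over the double mutant, while the proliferation markers lie at 0.57.

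Markers of proliferating cells had, in sum, the same order of groups as Tuba1b, Tuba1c and the beta tubulins among the 9 genes. The part of these markers in the tubulin result was not tested. All 14 that were tested were positive in the triple against the double mutant, where their median was 0.57 on the log2 scale, and 5 were called higher, beside 0.704% of all genes tested: Ccna2, Ccnb1, Kif11, Plk1 and Rrm2. Ccnb1, the mitotic cyclin, had 31.4 FPKM in the triple mutant, 17.6 in the double mutant and 26.9 in wild type in the authors' deposited table, and was 1.79-fold higher in the triple than in the double mutant (q-value 0.0066). Kif11, the spindle motor, had 18.2, 11.2 and 13.9 FPKM in that order of groups and was 1.62-fold higher in the triple than in the double mutant (q-value 0.0066). In the double mutant against wild type 1 of 15 (Rrm2, a subunit of ribonucleotide reductase) was called, lower, beside 0.767% of all genes tested, and the median was -0.31. In the triple mutant against wild type none of 14 was called by the authors' Cuffdiff q-value, 4 had an unadjusted p under 0.05, beside 12.1% of all genes tested, and the median was 0.22. Read from the statistic, no marker was called in any comparison. The summed level of the markers estimated in all groups was 464 FPKM in the triple mutant, 317 in the double mutant and 403 in wild type. No defining marker among them was at 0 apart from Mki67, a failed estimate in the triple mutant.

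Of 7 markers of smooth muscle cells and pericytes tested in the triple against the double mutant, 2 were called, beside 1.25% of all genes. Acta2 rose 1.50-fold in the triple mutant (254 against 169 FPKM in the authors' deposited table, q-value 0.0066) and Kcnj8 fell 1.50-fold (15.4 against 23.1 FPKM, q-value 0.0114). None of 10 endothelial and none of 7 fibroblast markers tested was called by the authors' Cuffdiff q-value, with medians of -0.22 and -0.27 in that comparison, and 1 and 4 of them had an unadjusted p under 0.05, beside 8.45% of all genes tested. No macrophage or erythroid marker was called in any comparison. Summed endothelial markers stood at 716 FPKM in the triple mutant, 826 in the double mutant and 843 in wild type. Neuronal and Schwann cell markers, for which several tubulin isotypes are also known, summed to 12.3 FPKM in the triple mutant, 14.2 in the double mutant and 12.9 in wild type, with Th at 0 in every group. The part of these cell types in the tubulin result was not tested.

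The genes whose pattern over the groups was most like that of Stmn1 and of Tubb5 were sought among 8530 genes with at least 5 FPKM in every group, by the distance between pairs of log2 ratios (triple mutant over wild type, double mutant over wild type). Nearest to Stmn1 was Tpx2, a spindle assembly factor in a shared locus, with 12.6 FPKM in the triple mutant, 8.83 in the double mutant and 7.87 in wild type and a distance of 0.00185. It was followed by Tnfrsf12a, Gm6058, Gm13232 and Rps6kb2. Nearest to Tubb5 was E2f1, a transcription factor of the cell cycle, with 8.69 FPKM in the triple mutant, 6.21 in the double mutant and 7.92 in wild type and a distance of 0.0133, followed by Rad54b, Mina, Rbl1 and Tgm2. Within a distance of 0.1 lay 15 genes for Stmn1 and 74 for Tubb5. With only 3 group values per gene, this likeness is a description.

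Promoters, taken as 250 bases before to 50 after the RefSeq start on GRCm38.p6, were matched for 6 of the 9 genes (Tuba1a, Tuba1b, Tuba1c, Tuba4a, Tubb2a and Tubb5) and searched on both strands. CCAAT, the box bound by NF-Y, was found in 3 of the 6 (Tuba1a, Tuba1c and Tubb5) and in 37.4% of all 32851 promoters. The motif GGGCGG, a core of Sp1 sites, was found in 5 of the 6 (not in Tuba1c) and in 35.7% of all. TTTGAA, the element known as the cell cycle genes homology region, was in none of the 6 and in 17.9% of all promoters. The CArG box of serum response factor was in none of the 6 and in 1.63% of all. These are matches of letters in a window and show no binding.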

How the data were processed

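Total RNA of ventricular tissue was made into stranded libraries, per the labels' protocols. The submitters' processing notes name mm9, Cuffdiff 2.2.1, Cufflinks 2.2.1, STAR 2.5.2 and CASAVA 1.8. Nothing used here names the annotation or how libraries were scaled. The authors deposited gene-level Cuffdiff output with 1 FPKM per gene and group. Per the file headers, each of 3 comparisons has a deposited statistic (a score), log2 fold change, p-value and q-value. FPKM keeps no depth, so no counting interval can be given. The labels do not say whether samples came from separate pups, so the p-values cannot be read as measuring the spread between animals.

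Checked against the file, the deposited log2 fold change is the log2 ratio of the FPKM values with no pseudocount, and the deposited q-values follow from one Benjamini-Hochberg adjustment that takes the 3 comparisons together. The lowest p-value is 5e-05 and the lowest q-value 0.0066, shared by many genes. Genes are marked significant in the file up to a q-value of 0.1, and 0.05 was used here. A failed estimate (2036 rows) was treated as missing. With no value per sample, no new test was run. Loci start from 0 in the file and are given as start plus 1.

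The members and gene lists were chosen with earlier results of these data known. All members are named. From each other list the 2 genes with the highest mean FPKM among tested genes and any gene called were set to be named. The text prints only some of those with the highest mean FPKM, so single genes do not stand for their lists. Some genes outside this rule are also given, such as Pfdn5 and Tbca. The 5 genes nearest to Stmn1 and to Tubb5 are named for likeness. Shared windows, coding identity and coding ends came from GENCODE M21 (Biopython 1.88), promoters from RefSeq. Coding ends of the other members are not reported here. The counting and adjustment steps were tested on simulated data. Python 3.11.15, pandas 2.3.3 and scipy 1.17.1 were used. Alternatives were another q threshold, adjustment within a comparison, FPKM minimums of 1 and 5, a pseudocount of 1 and other scalings. A normal p-value of the deposited statistic was added after seeing the data.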

Additional observations from a re-analysis of the deposited data

How the results depend on the processing

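No paired analysis was possible because the table holds 1 value per gene and group, and for the same reason no replicate could be left out. The direction of every log2 fold change of the 9 genes was kept under centring on the median of tested genes (shifts of 0.001 to 0.0041), rescaling to the same FPKM sum (-0.0391 to 0.0351) and log2(FPKM + 1) (-0.0314 to 0.0205). Rescaled, the ratio of summed FPKM over the 8 tubulins was 1.18 for triple mutant over wild type, 1.39 for triple over double mutant and 0.85 for double mutant over wild type, beside 1.18, 1.35 and 0.873 as deposited. FPKM minimums of 1 and 5 changed no count by over 1.5 times except that of the microtubule lists in the double mutant against wild type, where 0 remained at the minimum of 5 because Dclk1 has 3.67 FPKM in the double mutant. A q-value threshold of 0.1 gave 357 calls over all genes in the triple mutant against wild type, 253 in the triple against the double mutant and 575 in the double mutant against wild type, beside 198, 160 and 346 at 0.05. At 0.1 the double mutant against wild type gave 3 of the 9 genes (Tubb2a, Tubb2b and Tubb6), and the microtubule lists gave 2 calls in the triple mutant against wild type and 4 in the double mutant against wild type. Adjusted within the comparison, 2 of the 9 were called there (Tubb6 at a q-value of 0.0449 was gained), and Stmn1 in the triple against the double mutant was lost at 0.0622. With the normal p of the deposited statistic, an alternative chosen after seeing the data, the counts for the 9 genes were 0, 0 and 0, those over all genes 5, 4 and 9 and those of the microtubule lists 0, 0 and 0, in the triple mutant against wild type, the triple against the double mutant and the double mutant against wild type. The 8 called results then had q-values of 0.332 to 1.0. The cause of the gap between the statistic and the deposited p-value was not tested.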
